A study of Cicer arietinum with 8 samples.

Results

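Unstressed seedling shoots were set against unstressed seedling roots of the chickpea (Cicer arietinum) genotype ICC 3996. The measurements were the control channels of 2-colour cDNA arrays. They were chosen by tissue, treatment and role on the slide, with earlier results of these data known. Of 48 channel files in the series, 9 were used: 6 from shoots (stem and leaf), 3 of them collected at 24 h and 3 at 48 h, and 3 from roots collected at 48 h. The 3 arrays of roots at 24 h were left out because they are copies of 1 scan. The plants grew in aerated nutrient medium under hydroponics, and at an age of 18 days their medium was replaced with fresh full-strength Hoagland's solution without added salt. The hours are counted from that change. On each slide the other channel carried RNA of plants given 150 mM NaCl at the same time. The remaining samples of the series followed drought and cold nights in leaves and reproductive tissue (flowers and early pods).

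Shoots hold the photosynthetic tissue of a seedling, with chloroplasts, leaf mesophyll and stem vessels. Roots take up water and ions, hold no photosynthetic tissue when kept in the dark, and meet dissolved salt first. In legumes the organs are known to differ in a large part of their transcripts, and those that serve the chloroplast are among the most abundant of a leaf. The files name each of the 756 probes by a code only, with no gene description, so no role can be given for any probe named here. For the same reason no tissue marker could be read, and the tissue labels were taken as given.

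Each level below is the log2 of spot brightness above the local background, averaged over the unflagged spots of a probe. Every channel was centred on the median of the 114 probes that were measured in all 9 channels, so a difference between tissues is relative to those probes. A difference of 1 on this scale is a doubling. Each control channel came from its own slide, and replicates 1 and 2 of every group carried the dye Cy3 and replicate 3 the dye Cy5. The series calls the replicates biological, with tissue pooled and 5 plants per group. P-values therefore measure the spread between such pools and their slides. In pooled tissue, fewer cells of a type and less RNA per cell cannot be told apart.

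The root channels were dimmer than the shoot channels. In any channel, a probe was taken to be above background if 50% or more of its spots had a mean signal over the background mean plus 2 background SDs. By that measure shoots at 24 h had 496, 435 and 371 probes above background, shoots at 48 h had 467, 443 and 370, and roots had 162, 335 and 243. Every shoot channel exceeded every root channel. The mean count was 430 ± 51.0 in shoots (SD, n = 6) and 247 ± 86.6 in roots (SD, n = 3), a difference of 184 probes (two-sided exact permutation test, p = 0.0238, the smallest value that 84 splits allow). Of 4704 spots, 2156 to 2532 were unflagged in shoot channels, and 602, 1610 and 1431 in root replicates 1, 2 and 3, so that root replicate 1 was the dimmest. Between 12 and 44 probes per shoot channel were saturated, meaning that at least 50% of their spots had a median pixel at the 16-bit maximum, and no root channel had a saturated probe. The salt-treated channels of the same slides did not show the gap. They had 390 to 476 probes above background in shoots and 404 to 443 in roots. The part of the amount or labelling of root RNA in the low count of unstressed roots was not tested.

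**Figure D1:**
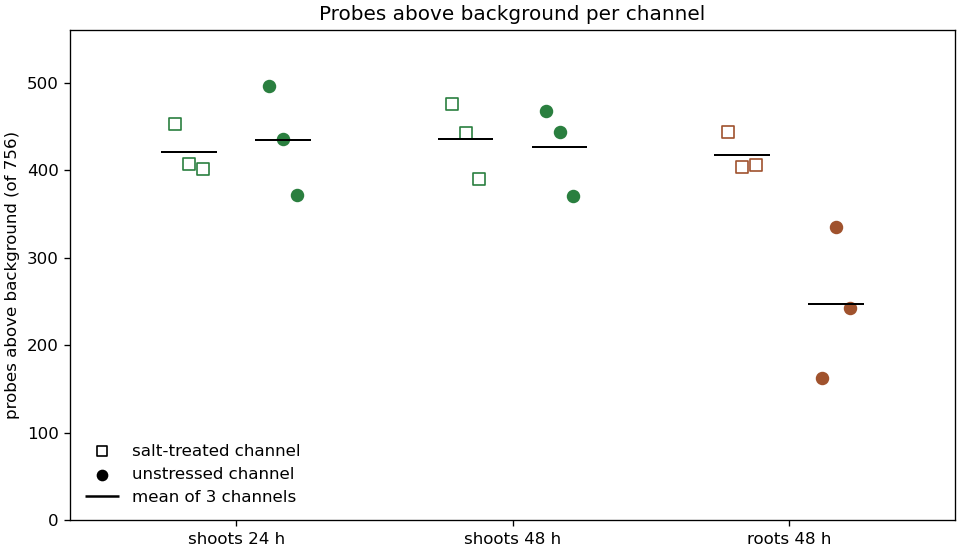
Number of probes above background (of 756) in each channel, by tissue and hour of collection. Open squares are salt-treated channels, filled circles the unstressed channels of the same slides, and black lines the mean of 3 channels. The salt-treated root channels lie at 404 to 443, and the unstressed root channels at 162, 335 and 243, below every unstressed shoot channel.

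Transcript levels differed between the tissues for many probes. Of 244 probes with values in at least 4 shoot and 2 root channels, 122 passed an adjusted p of 0.05 in limma, which is 50% of those tested. There were 65 higher in shoots (26.6%) and 57 lower in shoots (23.4%). The channels of the tissues did not overlap for 105 probes (43%), among them 49 of the 65 and 44 of the 57. The probes higher in shoots had a median difference of 1.41 on the log2 scale and those lower in shoots a median of -1.30. Large differences leaned to shoots: 22 of the higher probes and 8 of the lower ones differed by 2 or more on the log2 scale, and 12 and 1 differed by 3 or more. Across the 114 common probes, pairs of shoot channels correlated with r between 0.85 and 0.98, pairs of root channels between 0.71 and 0.84, and shoot with root channels between 0.29 and 0.61. These correlations describe the channels over shared probes, which are not independent.

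**Figure D2:**
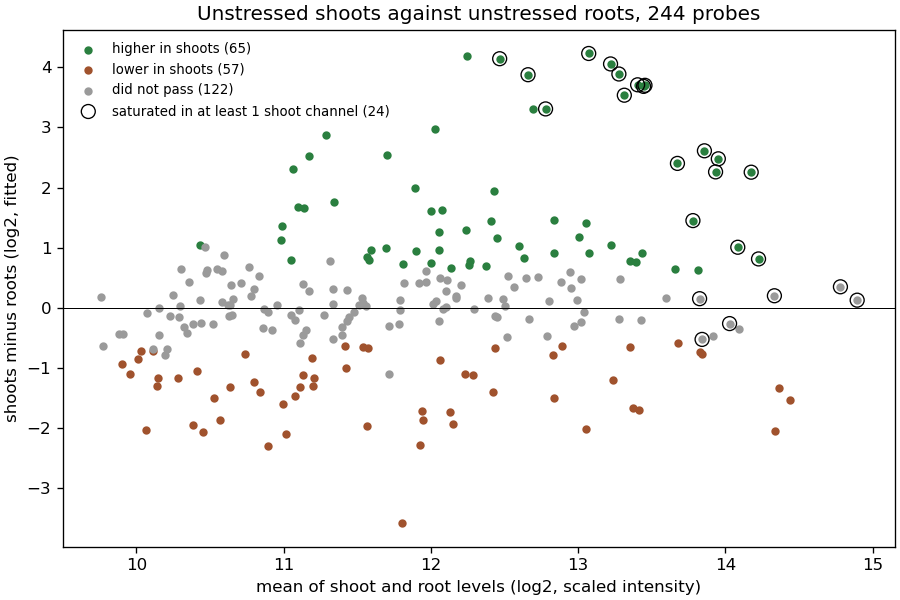
Fitted log2 difference of shoots minus roots against the mean level of each of 244 probes. Green points passed as higher in shoots (65), brown points as lower in shoots (57), and grey points did not pass (122). Circles mark the 24 probes saturated in at least 1 shoot channel, most of which lie at the upper right.

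How many probes stood on each side depended on the scaling. All tested probes together had a median difference of 0.06. Quantile mapping on the common probes shifted it to 0.49 and gave 88 higher and 34 lower. Loess within slides followed by Aquantile scaling shifted it to -0.77 and gave 25 higher and 137 lower. Keeping flagged spots, which brought 750 probes into the test and centred the channels on far dimmer probes, shifted it to -1.10 and gave 90 higher and 303 lower. Without the dim root replicate 1 there were 37 higher and 74 lower, and without root replicates 2 and 3 the calls numbered 62 and 59, of 120 and 119 testable probes. The brightness of the channels weighed differently on the directions. Before any scaling, the channels were already apart for 57 of the 65 higher probes but for 0 of the 57 lower ones, and leaving out root replicate 1 made that 57 and 4. A probe called lower in shoots was therefore lower relative to the common probes, with channels that overlapped in brightness as scanned. The count before scaling was not made over all tested probes. As root channels were dimmer in general, the 57 of 65 cannot be read as particular to the higher probes.

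The 12 probes farthest apart on the shoot side were U099, U324, U093, U124, U006, CA0714, U163, CA0725, CA0713, CA1197, U409 and U126, with fitted differences of 3.30 to 4.23. U099 had a lowest, median and highest level of 14.31, 14.97 and 16.10 in shoots, against 11.71, 10.52 and 10.64 in root replicates 1, 2 and 3. Its spots were saturated in all 6 shoot channels, so that the spread among shoots reflects the centring of each channel. The difference is a lower bound as to saturation alone, not as to the scaling or the spread of root values. In that sense U099 was at least 18.8-fold higher in shoots (log2 4.23 ± 0.35 SE, adjusted p = 1.72e-07 in limma). Its fitted difference ran from 3.55 to 4.93 under other settings. As scanned, its brightness above background was 49538 to 51531 units in shoots and 754, 1617 and 1041 units in the root channels.

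U324 was not saturated in any channel, but only root replicate 2 was above background for it. Its level was 13.76, 14.36 and 14.89 (lowest, median, highest) in shoots, against 9.87 and 10.51 in root replicates 2 and 3. It was 18.2-fold higher in shoots (log2 4.19 ± 0.32, adjusted p = 1.72e-07). U126, the other of the 12 that was saturated nowhere, had 14.05, 14.31 and 14.73 in shoots, against 11.28 and 10.75 in root replicates 2 and 3. That is 9.84-fold higher in shoots (log2 3.30 ± 0.28, adjusted p = 3.57e-07). For both probes the gap between the tissues was several times the spread within either.

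Only U099 among the 12 had a value in the dim root replicate 1, and the other 11 rested on 2 root channels. U093 lay between 14.28 and 14.66 in shoots, against 9.75 and 11.11 in roots, and CA0714 between 14.22 and 14.78 in shoots, against 10.58 and 10.87 in roots. These were saturated in 1 and 2 shoot channels. U124, U163, CA0713 and CA1197 were saturated in 4 or 5 shoot channels, U409 in 1, and U006 and CA0725 in all 6. In this scaling and as to saturation alone, U006 was at least 13.3-fold and CA0725 at least 11.0-fold higher in shoots. Their adjusted p in limma was 3.61e-07 and 1.95e-07. Under other settings their fitted differences went down to 2.76 and 2.62. All 12 kept their direction and their call in every one of 331 values obtained under other settings, each probe being counted where it could be tested.

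**Figure D3:**
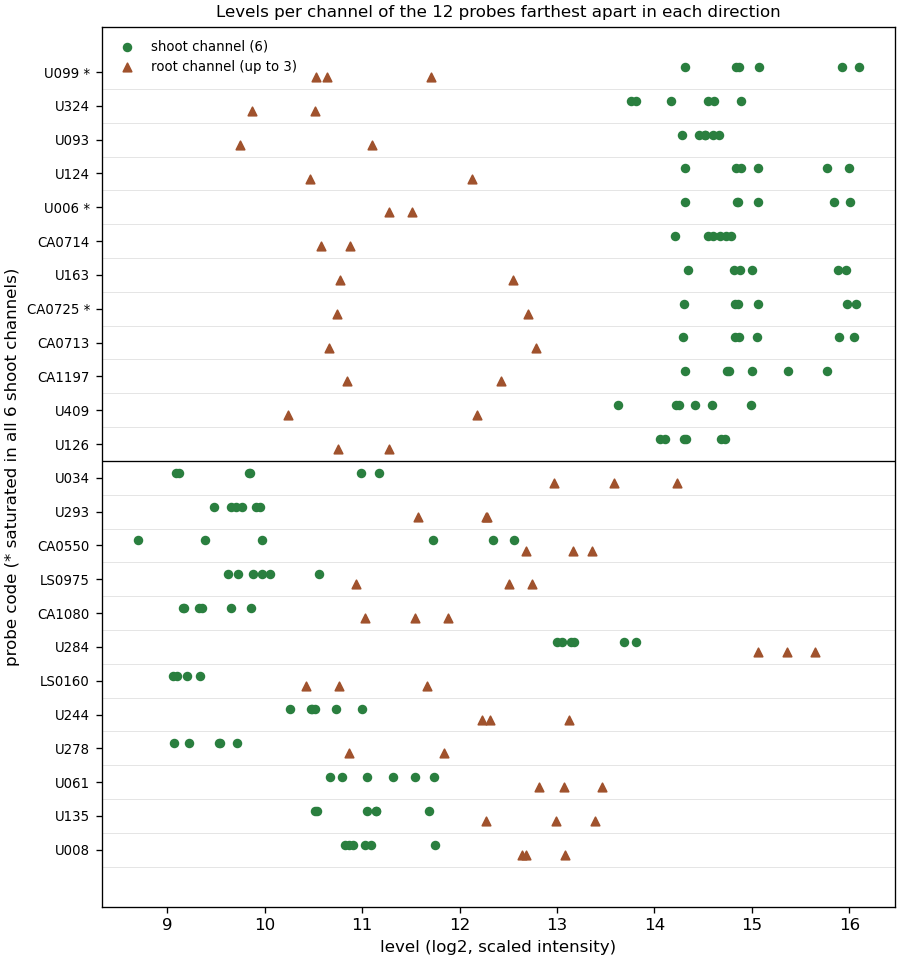
Scaled log2 level in each channel of the 12 probes farthest apart in each direction, with shoot channels as green circles and root channels as brown triangles. The upper 12 are higher in shoots, most with 2 root values, and the lower 12 are lower in shoots. An asterisk marks saturation in all 6 shoot channels, where the green points crowd at the same 6 positions.

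Saturation was common on the shoot side. Of 44 probes saturated in at least 1 shoot channel, 11 were saturated in all 6. Among these 11, 6 had enough root values to be tested and all 6 were higher in shoots, and the other 5 had too few root values. Being higher was largely fixed by that choice, as no root channel had a saturated probe. U382, 1 of the 6 with the highest mean level among probes measured in all 9 channels, was saturated in all 6 shoot channels at 14.31, 14.99 and 16.07 (lowest, median, highest), against 13.24, 11.15 and 13.75 in the root replicates. In this scaling and as to saturation alone, U382 was at least 5.57-fold higher in shoots (adjusted p = 4.87e-05 in limma). Under other settings its fitted difference went down to 1.60. In the same sense U395 was at least 6.11-fold and CA1074 at least 4.05-fold higher in shoots.

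A further 58 of 756 probes (7.67%) were above background in all 6 shoot channels and in no root channel. No probe showed the opposite pattern. Without root replicate 1 the counts were 59 and 1, without root replicate 2, the brightest root channel, the first was 113, and in the salt-treated channels they were 23 and 9. None of the 58 had root values in 2 channels, so none was tested. Their difference is given as a bound against the lowest level seen above background in each root channel. That level is not a strict ceiling: in root replicate 3 it was 10.34, while U039, not above background there, had 10.59. The bound is therefore approximate. That bound was 2 or more on the log2 scale for 28 of them and above 1 for 33. For some it was below 0, down to -0.88 for U344, and such probes were not shown to be higher in shoots. The 1 root value of CA0014, 10.40 in replicate 3, lay above its highest shoot level of 10.02.

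The 5 with the largest bound were U185, U174, U088, CA0318 and U039. U185 had 14.32, 15.01 and 16.06 in shoots (lowest, median, highest), while its roots were not well above background, with a bound of 10.31 on average. Set against that bound, it was 30.0-fold higher in shoots. The same measure gave 28.9-fold for U174, 28.3-fold for U088, 28.2-fold for CA0318 and 26.2-fold for U039. U039 had 1 root value, 10.59 in replicate 3, and the other 4 had none. In the salt-treated channels U088 and CA0318 could be tested and differed in the same direction, by 4.82 ± 0.32 and 4.28 ± 0.36 on the log2 scale (adjusted p = 1.32e-06 and 3.46e-06 in limma). Of the 58 probes, 32 were above background in at least 1 salt-treated root channel and 12 in all 3. Of all 756 probes, 404 to 443 were above background per salt-treated root channel. The counts for at least 1 and all 3 such channels were not made over all probes.

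On the root side the 12 probes farthest apart were U034, U293, CA0550, LS0975, CA1080, U284, LS0160, U244, U278, U061, U135 and U008, with fitted differences of -1.72 to -3.58. Of these, 11 had values in all 3 root channels. U034 stood out. Its level was 9.09, 9.84 and 11.18 (lowest, median, highest) in shoots, against 14.23, 12.97 and 13.59 in root replicates 1, 2 and 3. It was 12.0-fold lower in shoots (log2 -3.58 ± 0.43, adjusted p = 8.67e-06). As scanned, it had 732 to 5091 units in shoots and 4337, 8805 and 8053 units in roots, so that only the dimmest root channel fell within the shoot range. No other of the 12 differed by more than 2.30.

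U293 had narrow levels of 9.48, 9.74 and 9.95 in shoots, against 12.28, 12.27 and 11.58 in roots, and was 4.91-fold lower in shoots (log2 -2.30 ± 0.23, adjusted p = 1.34e-06). U284 was the brightest of the 12. It had 13.00, 13.16 and 13.81 in shoots, against 15.65, 15.06 and 15.36 in roots, which is 4.12-fold lower in shoots (log2 -2.04 ± 0.23, adjusted p = 5.63e-06). Saturation touched neither.

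CA0550 was the least settled of the group. Its shoot channels ran from 8.70 to 12.56, with an SD of 1.64, against 13.36, 13.16 and 12.68 in roots (log2 -2.29 ± 0.62, adjusted p = 0.00795). It did not pass with array quality weights (adjusted p = 0.0522), with a trended and robust eBayes (0.0769) or with the methods' t-test (0.107). LS0160 was measured in 4 shoot channels, at 9.06 to 9.34, and in roots at 11.66, 10.76 and 10.42, and it did not pass after quantile normalisation (adjusted p = 0.282) or quantile mapping (0.0512). The other 10 probes kept direction and call in every setting in which they were tested.

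The remaining root-side probes were closer together. U244 lay at 10.26 to 11.00 in shoots and 12.23, 12.31 and 13.12 in roots, U061 at 10.68 to 11.74 in shoots and 13.08, 13.47 and 12.82 in roots, and U008 at 10.83 to 11.75 in shoots and 13.08, 12.69 and 12.64 in roots. In each of these the lowest root channel lay above the highest shoot channel, which the choice of the 12 required. CA1080 lay at 9.16 to 9.86 in shoots and 11.88, 11.03 and 11.54 in roots. Besides CA0550, the narrowest gap was that of LS0975, whose highest shoot channel was 10.56 and whose lowest root channel was 10.94. In root replicate 1 no probe above background had a level under 11.48.

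Bright probes did not all differ. Among probes measured in all 9 channels, the 6 with the highest mean level were CA0849, U060, U022, U382, CA0730 and CA0021. CA0849 had 14.23, 14.66 and 16.01 in shoots, against 14.81, 14.86 and 14.83 in roots, a difference of 0.13 (95% interval -0.48 to 0.73, adjusted p = 0.760). U060 and U022 also missed the threshold, with intervals of -0.29 to 0.99 and -0.34 to 0.74. U079 (interval -0.92 to 0.20), U134 (-0.74 to 0.22) and U381 (-0.40 to 0.71) followed among bright probes whose interval lay within 1 of 0. In all, 71 probes had such an interval without passing, each relative to the common probes. CA0849, U060, U022 and U134 were saturated in 1 to 4 shoot channels, where a higher level could not have been read. Under loess with Aquantile scaling, where all tested probes had a median of -0.77, U022 and U381 turned to -0.68 and -0.99 and passed, and U079 and U134 passed at -1.42 and -1.26. U134 also passed without root replicate 1, at -0.79. U079 passed as lower after quantile normalisation too, at -1.05 (adjusted p = 0.00514), and with flagged spots kept, at -1.11 (0.0462).

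CA0730 and CA0021 passed, though their channels overlapped. CA0021 had 14.28 to 15.89 in shoots, against 11.61, 12.25 and 14.55 in roots (log2 2.26 ± 0.30, adjusted p = 2.36e-05). CA0730 had 14.21 to 14.91 in shoots, against 13.11, 13.84 and 14.51 in roots, with a difference of 0.81 ± 0.26 (adjusted p = 0.0207) that was 0.11 without root replicate 1 (adjusted p = 0.781) and -0.23 under Aquantile scaling.

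A set of 14 probes known for a salt response in an earlier look at these data was followed back to the unstressed plants, to see where each started. Of the 12 that could be tested, 2 were higher in shoots (U126, U350) and 5 lower (U034, U278, U098, U135, U252), and 5 did not pass (U076, U219, CA0562, U270, CA0554). Over all tested probes, 26.6% were higher and 23.4% lower in shoots. U098 had 11.22, 12.10 and 13.02 (lowest, median, highest) in shoots, and its roots spread widely at 13.87, 12.78 and 15.55 (log2 -2.02 ± 0.40, adjusted p = 0.000669). U135 had 10.52 to 11.69 in shoots, against 13.39, 12.99 and 12.27 in roots (log2 -1.87 ± 0.23, adjusted p = 1.10e-05). U278 had 9.07 to 9.72 in shoots, against 11.84 and 10.86 in root replicates 2 and 3.

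U252 was called on 2 root values that disagreed, 13.15 in replicate 1 and 9.92 in replicate 2, against 9.43 to 10.10 in shoots. Its difference of -1.88 ± 0.60 (adjusted p = 0.0207) did not pass in 9 of 27 other settings. U350 lay at 11.18 to 12.00 in shoots, against 10.60 and 10.66 in roots (log2 0.79 ± 0.28, adjusted p = 0.0311). Its call was lost in 11 of 28 other settings, with a difference of 0.37 and an adjusted p of 0.255 without root replicate 1. It turned to -0.23 under Aquantile scaling.

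The untested pair differed in signal. CA0705 was bright in every shoot channel, at 13.85 to 14.36, and had 1 root value, 9.43 in replicate 2, the only root channel where it was above background. LS0381 had 8.98 to 10.63 in 5 shoot channels and 9.82 in root replicate 2. Among the 5 that did not pass, U219 had a difference of 0.02 ± 0.26 and U076 of 0.47 ± 0.25, while CA0554 varied from 10.31 to 13.13 among shoot channels and lay at 11.98, 12.21 and 11.56 in roots. U270 and CA0562 had differences of -0.12 ± 0.39 and 0.18 ± 0.36. Quantile mapping called CA0562 higher, at 1.33 (adjusted p = 0.0112), and Aquantile scaling called U270 and CA0554 lower, at -1.07 and -1.31 (0.0159 and 0.0123). With the scan of roots at 24 h added, U076 passed at 0.57 (0.0497).

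Grouped by the prefix of the code, which the files do not explain, the U class had 442 probes, of which 174 were tested, 47 were higher and 40 lower in shoots. The CA class had 117 probes, of which 58 were tested, 18 were higher and 13 lower. The LS class had 156 probes, of which 12 were tested, 0 were higher and 4 lower. Set against 50% over all tested probes, the shares called were 50.0% for U, 53.4% for CA and 33.3% for LS, and the median differences were 0.06, 0.10 and -0.14. None of the 41 LC probes was above background in any of the 9 channels, so none was tested. Of the 156 LS probes, 85 were above background in any of the 9 channels, beside 361 of 442 U probes and 103 of 117 CA probes. Few LS probes were above background throughout a tissue, with 15 in all shoot channels and 3 in all root channels. The same counts were 222 and 92 for U probes, and 86 and 33 for CA probes.

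The harvests were compared to see how far unstressed shoots differ among themselves. Between shoots at 48 h and at 24 h, 0 of 404 probes (0%) passed in limma. The lowest adjusted p was 0.700, and before adjustment 21 probes fell under 0.05. Over the 243 probes tested in both comparisons, the median size of the difference was 0.20 between the harvests and 0.66 between the tissues. U034 was among the 3 smallest p-values, at -1.32 ± 0.39 (48 h minus 24 h). Leaving out replicate 2 at 48 h gave 2 calls. Set against the roots alone, shoots at 48 h gave 46 higher and 40 lower probes, and shoots at 24 h gave 50 higher and 40 lower.

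The same slides carried salt-treated shoots and roots in the other channel, and these gave the tissue comparison again on other RNA. In those 9 channels, scaled on their own, 185 of 387 probes (47.8%) passed, 81 of them higher in shoots (20.9%) and 104 lower (26.9%), and the tissues did not overlap for 154 (39.8%). Without root replicate 1 or 2 the calls numbered 103 and 116. Of the 65 probes higher in unstressed shoots, 33 were also higher in salt-treated shoots, 5 were lower and 27 did not pass. Of the 57 lower in unstressed shoots, 33 were also lower under salt, 0 were higher and 24 did not pass. The sign of the fitted difference was the same for 53 of the 65, for 49 of the 57, and for 173 of all 242 probes tested in both. The channels of a slide share its spots and its print, so they are not independent in that respect. Over the 122 called probes the median size was 1.03 in salt-treated and 1.31 in unstressed plants.

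Of the 12 leading shoot-side probes, 11 were also higher in salt-treated shoots. U099 differed by 4.15 ± 0.47 under salt and U124 by 3.95 ± 0.26 (adjusted p = 1.91e-05 and 1.02e-06), while U324, U093, U006 and U163 had 2.64, 2.61, 2.76 and 2.63 under salt beside 4.19, 4.14, 3.89 and 3.71 in unstressed plants. U126 did not: it lay at 12.30, 14.40 and 15.28 in salt-treated shoots, against 14.64, 14.76 and 12.79 in salt-treated roots, a difference of 0.05 ± 0.33 (adjusted p = 0.923). Of the 12 leading root-side probes, 7 were also lower in salt-treated shoots. U034 differed by -2.78 ± 0.53 and U061 by -3.19 ± 0.29 under salt (adjusted p = 0.00119 and 3.46e-06). The other 5, LS0975, CA1080, U284, U278 and U135, missed the threshold there, with differences of -0.06, -0.84, -0.60, 1.30 and 0.15.

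Some probes stood apart only in 1 of the conditions by the threshold, which is not a test of the change. U270 and CA0554, which did not pass between unstressed tissues, were lower in salt-treated shoots by -3.30 ± 0.30 and -3.74 ± 0.48 (adjusted p = 3.46e-06 and 5.41e-05). The 5 probes called in opposite directions were CA0844, U199, U350, U354 and U444, which were picked out after their values were seen. Their differences were -0.76 to -2.32 in salt-treated and 0.69 to 1.05 in unstressed plants. U350 had the widest swing, at 11.01 to 11.95 in salt-treated shoots and 13.67 to 13.80 in salt-treated roots. The difference between the conditions was not tested here.

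**Figure D4:**
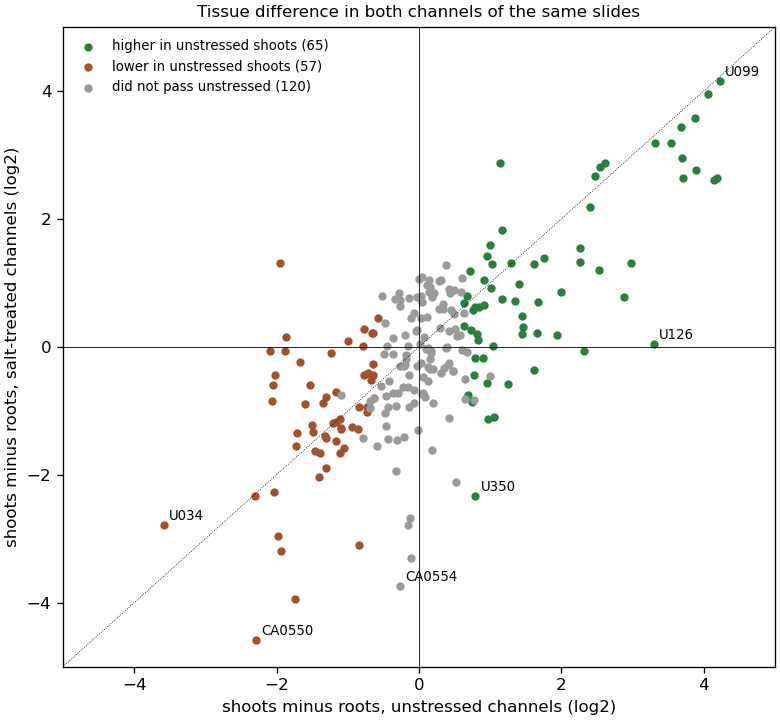
Fitted log2 difference of shoots minus roots in salt-treated channels (y axis) and in the unstressed channels of the same slides (x axis), for 242 probes. Green and brown mark probes higher (65) and lower (57) in unstressed shoots, and the dotted line marks equal differences. U099 and U034 lie near the line, U126 lies near 0 on the y axis, and U350 lies below it.

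Unstressed leaves and unstressed flowers with early pods from other experiments of the series gave 12 more control channels, 6 of each. Those plants were of another stage and growing system and were quantified on other days, so the values are set side by side without a test, scaled over 21 channels on 90 probes measured in all of them. All 12 of the leading shoot-side probes were higher in every leaf and flower channel with a value than in any root channel with one. For U126 the medians were 14.57 in shoots, 14.81 in leaves, 12.84 in flowers and 11.45 in roots. Over the 65 probes higher in shoots, every leaf channel exceeded every root channel for 33, and every flower channel did for 25. Among all 244 tested probes these counts were 45 and 32. The 65 were chosen on these same root channels, so part of the excess was fixed by that choice. Such counts used only channels with a value. All 6 leaf channels had one for 63 of the 65, and all 6 flower channels for 54.

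The leading root-side probes were mostly low in leaves and flowers too. They were chosen on the same root channels, so part of the counts below was fixed by that choice. Counting only channels with a value, 9 of the leading 12 had every leaf channel below every root channel and 11 had every flower channel below. Over the 57 probes lower in shoots the counts were 33 and 37, and 25 were below roots in both tissues, against 43, 56 and 27 of the 244. All 6 leaf channels had a value for 37 of the 57 and all 6 flower channels for 25, against 198 and 156 of the 244. U034 had medians of 10.14 in shoots, 10.07 in leaves, 10.36 in flowers and 13.96 in roots on this scale. U284 had 13.49 in shoots, 12.33 in leaves, 13.95 in flowers and 15.73 in roots. U293 and U278 had flower levels nearer to roots, with flower medians of 11.61 and 11.36 beside root medians of 12.68 and 11.78. U278 had 1 leaf value, 8.42.

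**Figure D5:**
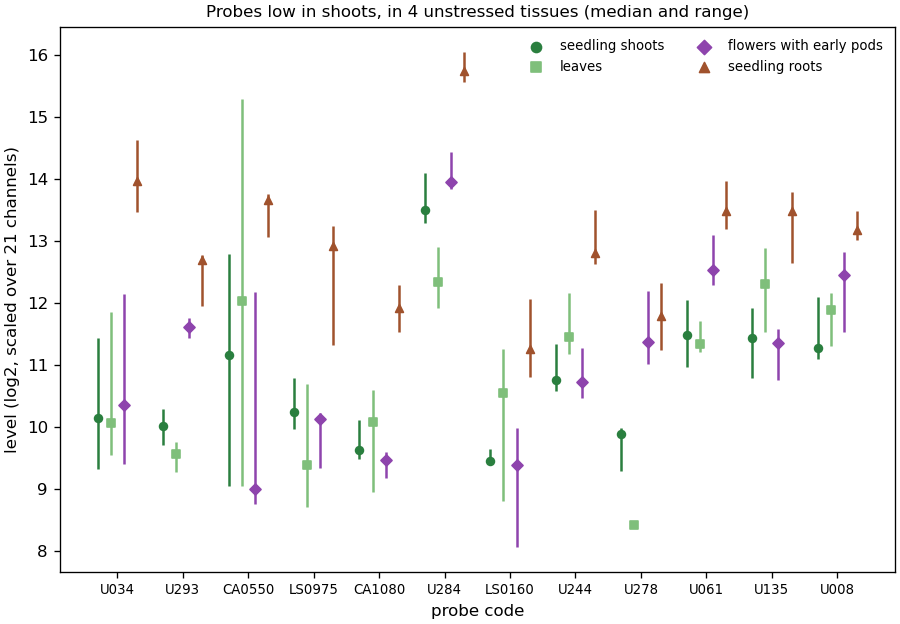
Median (symbol) and range (line) of the log2 level, scaled over 21 unstressed channels, for the 12 probes lowest in shoots relative to roots. Seedling roots (brown triangles) are above seedling shoots (green circles) for each probe, which the choice of the probes largely fixed. Leaves and flowers with early pods lie below the roots for most.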

How the data were processed

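The deposited intensity values are mean and median pixel brightness per spot and in its local background, per the file headers from ImaGene version 5.5, which flagged empty and poor spots. In the 9 files an unflagged spot always had a signal of at least 2 times its background, so dim probes have no value. The series design gives the authors' scanner and software. Dye and role came from the file names. Members, probe lists and tests were chosen with earlier results of these data known.

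From these values, log2 of signal minus background was averaged over unflagged spots of a probe (6 spots each), and channels were centred on the median of the probes measured in all 9. Control spots were left out. A linear model with tissue and dye was fitted with limma 3.58.1 in R 4.3.3 and moderated with eBayes, with Benjamini-Hochberg adjustment over all tested probes and a threshold of 0.05. A probe was tested with values in at least 4 shoot and 2 root channels. Standard errors follow the ± sign of fitted differences, and a fold is the fitted difference taken out of log2. Saturation, seen as a spot median of 65535, was considered after the data were examined. Named probes were the 12 largest non-overlapping called differences in each direction, the 5 largest bounds among probes above background in one tissue, the 6 brightest measured in all channels, the 6 brightest with a 95% interval within 1 of 0, 14 probes named earlier for salt, and LC probes above background, of which there were none. U395, CA1074 and the 5 probes of opposite direction were named outside this rule. On simulated data with the same missing values, the fit called 29 of 30 probes changed by 2 on the log2 scale, 14 of 30 changed by 1, and 2 of 184 unchanged. The number of arrays limits the precision. Alternatives covered scaling, background, flags, filters, dye, harvest, moderation, weights, day of quantification and each channel left out.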

Additional observations from a re-analysis of the deposited data

Results flagged for a closer look

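Among the 48 named probes, the shoot channels of 2 held a value far from the other 5, where chance alone sets apart about 1 group in 20. U008 had 11.75 in shoots 24 h replicate 1, against 10.83 to 11.09 in the other shoot channels, and stayed below its lowest root channel. U252 had 10.10 in shoots 48 h replicate 1, against 9.43 to 9.56 in the other shoot channels. The check did not cover probes that were not named. Among those, shoots 48 h replicate 2 held low values for U016 (9.11, against 14.25 to 15.17 in the other shoot channels), U105 (10.02, against 14.29 to 15.42) and U042 (9.20, against 13.09 to 13.52). None of these had a value in root replicate 2, and the cause was not tested. U350 moved opposite ways between conditions: in salt-treated plants every shoot channel was below every root channel, with a difference of -2.32 on the log2 scale, while in unstressed plants every shoot channel was above every root channel with a value, with a difference of 0.79. That contrast between the conditions was not tested.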

How the results depend on the processing

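Of the 122 calls between shoots and roots, 74 were left in number with quantile normalisation, 81 with each channel centred on its own median and 66 with values required in all 9 channels (114 tested), while 393 of 750 passed with flagged spots kept. Leaving out single channels gave 59 to 111, the lowest without root replicates 3 (59) and 2 (62), where 119 and 120 probes could be tested. By the methods' t-test 121 probes passed unadjusted and 93 adjusted, and the other settings gave 86 to 162. Leaving out single channels gave 0 to 2 calls between harvests and 103 to 238 between salt-treated tissues. It gave 141 to 228 for the difference in probes above background, where 2 root channels cannot reach the threshold (exact permutation p = 0.0714), and 58 to 113 for probes above background in shoots only. Under loess with Aquantile scaling U022 (-0.68), CA0730 (-0.23), U381 (-0.99), U219 (-0.77) and U350 (-0.23) changed sign, and the cause was not tested. With the replicate number as a block in place of dye, 116 probes passed between tissues and 0 between harvests. Same-numbered channels correlated at 0.09 to 0.70 in their deviations over 114 probes, and replicate 3 differs in dye, so the numbers were not taken as pairs. Day of quantification set only shoots 24 h replicate 1 apart, and as a block it gave 113. Settings chosen after seeing the data were centring on probes saturated in no channel (119) and leaving out saturated values (108). The lowest levels above background were 8.03 to 9.39 in shoots and 11.48, 9.13 and 10.34 in root replicates 1, 2 and 3, which limits what could be read in roots.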

Other observations

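The scan of roots at 24 h, averaged over its 3 copies and counted as 1 sample with no replicate, had values for 63 of the 65 probes higher in shoots and for all 57 lower ones. It lay below the shoot mean for 60 of the 63 and above it for 52 of the 57. It lay beyond every shoot channel in that direction for 54 and 40. These counts were not made over all tested probes, so they have no background share beside them. Added as a root channel without a dye term, it gave 82 higher and 47 lower among 293 tested probes in limma.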
